A study of Homo sapiens with 6 samples.

Results

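ETS proteins are transcription factors that share the winged helix-turn-helix ETS domain, which binds DNA around a GGAA core. Flanking bases and partner proteins set which family member occupies a given site. In the B lineage, SPI1 (PU.1) is the myeloid and B-cell pioneer factor, ETS1, FLI1, ELF1 and ETV6 act in lymphoid and other blood cells, and ERG is best known from haematopoietic stem cells and endothelium. ETS2 and ELK3 are expressed in many tissues, whereas ELF3 and EHF are factors of epithelia. The 10 genes were grouped by these known sites of action, as 8 haematopoietic or broadly expressed members and 2 epithelial members, out of 19834 annotated protein-coding genes. For each gene the peaks that overlapped its hg19 gene body or the 10 kb on either side were taken from 6 peak lists, which gave 57 of the 56447 regions of the series (regions are the merged peaks of all 6 lists).

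The libraries were bulk ATAC-seq, in which the Tn5 transposase inserts sequencing adapters into accessible DNA, of GM12878, a human lymphoblastoid B-cell line transformed by Epstein-Barr virus. All cells had been fixed in 1% PFA, and 3 ways of reversing the crosslinks were compared with 2 libraries each. The old buffer contained SDS and the DNA was purified, the new buffer lacked SDS and the DNA was purified, and in the third protocol the new buffer went directly into the PCR without purification. No antibody was used, unfixed cells were not analysed here, and the use of a single cell line limits every statement to it. The labels do not say that the 2 libraries of a protocol came from separate cultures. Where 6 values follow each other, their order is old buffer purified 1 and 2, new buffer purified 1 and 2, then new buffer unpurified 1 and 2.

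The lists held 30136 to 38023 peaks, with a median of 20.0 to 22.0 reads stacked at the summit and no peak below 8 reads in any library, so a site without a peak is one the caller did not list at this depth. Of 7 B-cell marker genes, MS4A1 (CD20) and EBF1 had a promoter peak in all 6 libraries, CD79A in 4, CD22 in 3, CD79B and PAX5 in 1 each and BLK in none, although the windows of PAX5, EBF1 and BLK held peaks in every library. None of 8 epithelial markers (EPCAM, CDH1, keratins, CLDN4, GRHL2), 4 erythroid and myeloid markers or the 3 endothelial markers with an annotation had a promoter peak in any library. Of 5 T-cell markers only BCL11B did, in all 6. Several defining promoters of the labelled cell type were thus missing from most lists, so that a missing call at an ETS gene cannot be read as closed chromatin.

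Sequences around the summits of strong distal regions of haematopoietic and epithelial genes follow, as examples. They are given on the plus strand of hg19, in lower case, with every GGAA and its reverse complement TTCC in capitals, because this is the core that ETS proteins read. The first comes from an ETS1 intron and was the strongest distal region of the 8 haematopoietic and broad members by mean −log10 q (chr11:128366968-128367167), although another distal region of FLI1, ETS1 or ETV6 was higher in 3 of the 6 libraries. The next comes from an EHF intron and was the strongest region of the epithelial members (chr11:34672167-34672366). The last 2, chosen after their values were seen, are the strongest distal regions of ETV6 (chr12:11989357-11989556) and FLI1 (chr11:128627834-128628009), the latter cut back to 176 bases where an exon begins.
ETS1 intron: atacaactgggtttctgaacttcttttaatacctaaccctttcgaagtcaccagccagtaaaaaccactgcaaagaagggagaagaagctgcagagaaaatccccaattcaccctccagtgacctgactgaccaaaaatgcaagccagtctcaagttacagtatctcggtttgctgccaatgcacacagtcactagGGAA
EHF intron: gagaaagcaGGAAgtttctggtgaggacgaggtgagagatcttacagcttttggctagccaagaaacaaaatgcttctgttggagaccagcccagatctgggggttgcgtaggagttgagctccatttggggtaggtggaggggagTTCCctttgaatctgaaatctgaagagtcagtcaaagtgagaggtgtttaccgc
ETV6 intron: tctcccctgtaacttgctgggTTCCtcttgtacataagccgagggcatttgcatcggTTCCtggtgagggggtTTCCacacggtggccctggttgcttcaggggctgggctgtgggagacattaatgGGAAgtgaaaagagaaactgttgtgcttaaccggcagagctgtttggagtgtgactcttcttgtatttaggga
FLI1 intron: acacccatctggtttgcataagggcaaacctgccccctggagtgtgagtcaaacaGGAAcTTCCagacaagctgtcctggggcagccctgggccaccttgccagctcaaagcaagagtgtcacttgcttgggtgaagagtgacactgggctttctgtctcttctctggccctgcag

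The ETS1 element held 1 GGAA core, 98 bases from its summit, the EHF element 2, the ETV6 element 4 and the FLI1 element 2, which stand 1 base apart in opposite orientations. None of the 4 contained CCGGAAGT, the class I ETS consensus, GAGGAAGT, a sequence of the SPI1 type, or TGTGGT, the RUNX core, on either strand. Over the 200 bases around the summit, 40 of the 43 distal member regions (93.0%) held GGAA, against 87.5% of all 43537 distal regions. CCGGAAGT occurred in 0 of the 43 and in 0.368% of all distal regions, and GAGGAAGT in 0 of the 43 and in 3.17%. TGTGGT occurred in 7 of the 43 (16.3%) and in 27.0% of all distal regions. Both strands were searched, the GGAA count includes the longer ETS sequences, and a match of letters is no evidence of binding. Only exact matches were counted, so variants of the longer sequences, such as CAGGAAGT in the EHF element, were left out. The lack of an exact match therefore does not show that a site of that type is missing.

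SPI1 and ERG had no peak in any library. SPI1 (chr11:47376411-47400098, minus strand) has 4 annotated coding starts, and its window of 43.7 kb was empty in all 6 lists. The nearest region upstream lay 21.5 kb from the gene, inside SLC39A13-AS1, and was called in all 6 libraries with a −log10 q, the peak caller's adjusted significance, of 5.18, 3.35, 11.0, 10.2, 9.26 and 5.63. These are weak to middling peaks, between the 1.15 and 56.5 percentile of their own library (100 is the strongest peak), and they fall outside the window. Downstream the nearest region was at the MADD start, 84.6 kb away. Among protein-coding genes with a window within 10% of the length of that of SPI1, 80.2% had a peak in at least 1 library, and over all genes and window lengths the share was 78.9%, so that SPI1 stood with 374 of 1889 genes of its size. The GC content of the 300 bases at the 4 SPI1 starts was 61.3 to 64.0%. For comparison, the median was 66.0% at coding starts with a peak within 1 kb in all 6 libraries and 53.3% at starts with none. The part of GC content in the missing calls was not tested.

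ERG (chr21:39751949-40033704, minus strand) has 8 annotated coding starts and the longest window of the members, 302 kb, without a peak in any list. Its nearest regions were 51.7 kb downstream, called in 2 libraries, and 72.2 kb upstream, called in 1. Of 908 protein-coding genes with a window at least as long, 96.9% had a peak in at least 1 library, and ERG was among the 28 that had none. ETS2, its neighbour on chromosome 21, was called in all 6 libraries.

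Over the 8 haematopoietic and broad members, 5 had a promoter peak in all 6 libraries, where a promoter peak lies within 1 kb of the start of a protein-coding transcript. These were ETS1, ELF1, ETV6, ETS2 and ELK3. FLI1 had one in 5 libraries, which fell to 2 when −log10 q had to reach 5 or with the same number of strongest peaks from each list, and SPI1 and ERG had one in none. Neither ELF3 nor EHF reached all 6, but both were called in 5. Among all protein-coding genes 45.6% had a promoter peak in all 6 libraries and 60.6% in at least 1, which compares with 8 of the 10 members, both epithelial genes included. Each epithelial gene missed a complete call by a single library. ELF3 lacked a call in new buffer purified 2, which had the shortest list, and EHF lacked one in new buffer unpurified 1. Leaving out either library gave 1 epithelial gene with a complete call, and leaving out old buffer purified 2 made FLI1 complete. Taking the same number of strongest peaks from each list only removes peaks and could not restore a missing call. ELF3 and EHF kept their 5 libraries there. The cause of their missing calls was not tested.

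**Figure D1:**
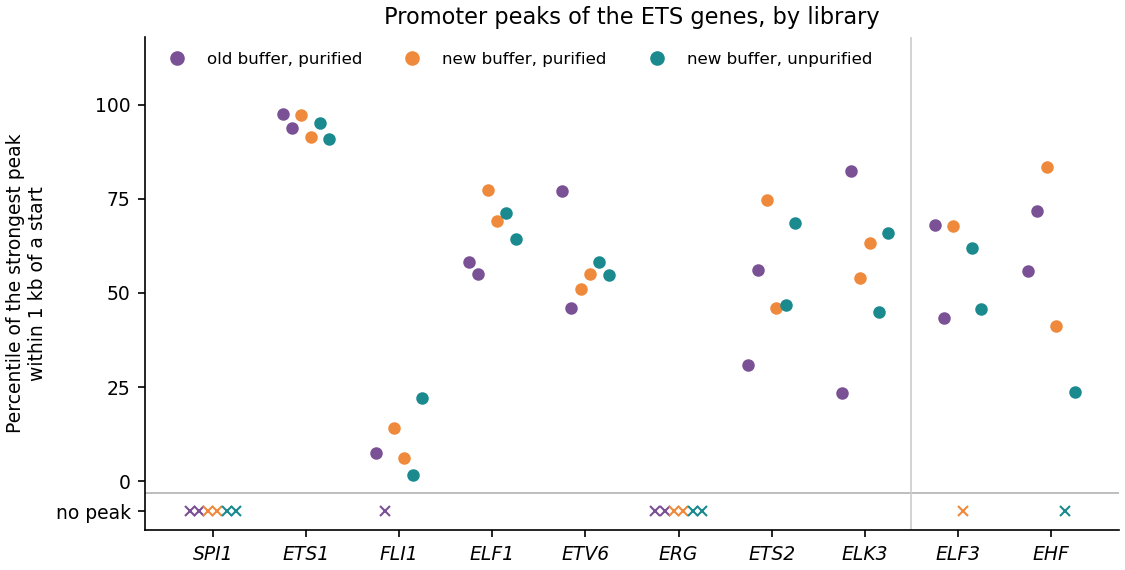
Percentile, within its own library, of the strongest peak within 1 kb of a coding start (vertical axis, 100 is the strongest peak of the library) for each of the 10 genes, with 1 point per library coloured by protocol, crosses for libraries without a promoter peak, and the epithelial genes right of the vertical line. ETS1 lies at or above 90.8 in every library, FLI1 at or below 22.1, SPI1 and ERG have no peak, and the other 6 genes overlap.

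ETS1, needed for lymphocyte differentiation, had the strongest promoter of the members. The region chr11:128391985-128392753 covers 3 clustered starts at 128392096 to 128392205 and was called with a −log10 q of 43.3, 30.1, 45.4, 27.3, 38.1 and 28.4. Its percentiles were 97.4, 93.9, 97.3, 91.4, 95.1 and 90.8, a range that no promoter of another member reached in any library. The most upstream ETS1 start, 128457453, and the internal start at 128375289 had no peak within 1 kb in any library, so that accessibility was listed at 3 of the 5 annotated starts.

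FLI1, the neighbour of ETS1 on chromosome 11 and a regulator of megakaryocytes and B cells, had promoter peaks that were weak and not at the same place. Region chr11:128563945-128564276, at the starts 128563967 and 128563987, was called in old buffer purified 1 and new buffer unpurified 2 with a −log10 q of 4.56 and 5.81. A region 507 bp from a start (chr11:128564494-128564890) was called in old buffer purified 1 and new buffer purified 2 with 4.05 and 4.21. Region chr11:128563002-128563247 was listed in new buffer purified 1 alone, and chr11:128556854-128557053, near the most upstream start, in new buffer unpurified 1 alone. The best promoter peak of FLI1 reached percentiles of only 7.61, 14.05, 6.27, 1.55 and 22.1 in the 5 libraries with a call. The regions other than the most upstream one overlap SENCR, a lncRNA gene, and ATAC-seq does not tell the 2 genes apart there. The most upstream region lies within 1 kb of a start of a further annotated gene without a symbol.

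ELF1, which is expressed in lymphocytes, had promoter regions at 2 of its 4 starts, in all 6 libraries. At the most upstream start, 41635576, chr13:41634929-41636197 was called with a −log10 q of 6.13, 9.94, 14.8, 9.92, 15.6 and 8.32. This region also covers the start of the divergent gene WBP4. A further region, chr13:41634234-41634838, lay 738 bp into the gene and had 11.4, 4.77, 18.1, 13.6, 8.42 and 12.9. At the internal start 41593452, chr13:41593143-41593745 had 5.79, 7.99, 10.7, 10.6, 14.3 and 5.32. All 3 were called throughout, yet none was strong in every library, and their lowest percentiles were 22.9, 11.97 and 16.4. Starts 41556361 and 41557035 had no peak within 1 kb.

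ETV6 (TEL), a repressor required in haematopoietic stem cells, was called in all 6 libraries within 1 kb of its most upstream start, 11802608, at chr12:11801762-11803023, with a −log10 q of 17.6, 8.47, 9.75, 10.1, 11.6 and 10.4. A peak lay on the start itself in 3 libraries, and the strongest summit was upstream of it. Old buffer purified 1 stood above the other 5 libraries, at percentile 77.03 against 46.1 to 58.3. The starts at 11905435 and 12038871 had no peak within 1 kb in any library. ETS2, a broadly expressed nuclear target of MAP kinase signalling, had a single region, chr21:40177335-40178574, which lay over 4 of its 9 starts in every library. Its −log10 q was 6.95, 10.1, 16.9, 8.50, 9.26 and 14.1, and its percentile ran from 30.7 in old buffer purified 1 to 74.6 in new buffer purified 1.

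ELK3, a ternary complex factor that can repress serum response genes, was called at chr12:96589182-96589767 with a −log10 q of 6.22, 18.8, 10.4, 11.9, 8.89 and 13.3. The lowest and the highest of these values were the 2 libraries of the same protocol, the old buffer. The region lies in an intron, 790 bp from the nearest start (96588392), and its strongest summit is 1112 bp away. With peaks placed by their summit, or with a promoter of 500 bp, ELK3 had a promoter peak in no library, and with basic transcripts alone in 5. No peak lay on any of its 4 annotated starts, of which the 2 most upstream had a GC content of 83.7 and 82.0%. The part of GC content was not tested here either.

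ELF3, a factor of epithelial differentiation, had 1 region, chr1:201979242-201979880, over 2 internal starts (201979715 and 201979772). Its −log10 q was 14.1, 8.15 and 14.3 in the first 3 libraries, and 12.5 and 8.73 in the unpurified ones, with no peak in new buffer purified 2. These values are percentiles of 43.4 to 68.0. The region lies in the antisense lncRNA gene ELF3-AS1 and within 1 kb of a start of it, and the accessibility of the 2 genes cannot be told apart. The most upstream ELF3 start, 201977073, had no peak within 1 kb.

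EHF, which acts in epithelia and lies next to ELF5 on chromosome 11, was called at 3 internal starts, 34645807 to 34645823. Region chr11:34645543-34645988 had a −log10 q of 10.8, 14.2, 21.9 and 7.81 in the first 4 libraries, no peak in new buffer unpurified 1 and 5.98 in new buffer unpurified 2. Its percentile ranged from 23.7 to 83.3. A weak region 534 bp from a start (chr11:34645074-34645273) was listed in old buffer purified 2 alone, at percentile 10.9. The other 7 of the 10 EHF starts had no peak within 1 kb.

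By the median percentile of the strongest promoter peak over the libraries that called one, the members ranked ETS1 94.5, ELF1 66.8, ELF3 61.8, ELK3 58.6, EHF 55.7, ETV6 54.9, ETS2 51.4 and FLI1 7.61. The ELF1 value takes the strongest of 3 promoter regions in each library. Their own medians were 61.3, 54.5 and 48.9, and the first 2 lie within 1 kb of a WBP4 start. ETS1 overlapped with no other member. FLI1 lay below the others, its highest value of 22.1 just under the lowest of ELK3 at 23.5 and of EHF at 23.7. The 6 in between overlapped throughout, and ELF3 and EHF stood inside the range of the haematopoietic and broad genes. Of the 14 promoter regions of the members 7 were called in all 6 libraries, against 64.2% of all promoter regions of the series. These 7 had a median percentile of 54.9, compared with 78.2 for all promoter regions called in every library.

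Away from promoters, the members with the most listed elements were ETV6, ETS1, FLI1 and ELF1. Distal regions lie more than 1 kb from every protein-coding start, and there were 41 in the windows of the haematopoietic and broad members and 2 in those of the epithelial ones. Of the 41, 19 (46.3%) were called in all 6 libraries, 14 in 2 to 5 and 8 in 1, while 27.0% of all distal regions of the series were called in all 6. Of the 2 epithelial ones, 1 was called in all 6 and the other in 5. By position 36 of the 41 lay in introns, 2 touched an exon and 3 lay in the flanks. The 20 distal member regions in all 6 libraries had a median percentile of 63.9 and the 8 in a single library 8.48. Over all distal regions of the series these medians were 64.0 and 14.3.

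**Figure D2:**
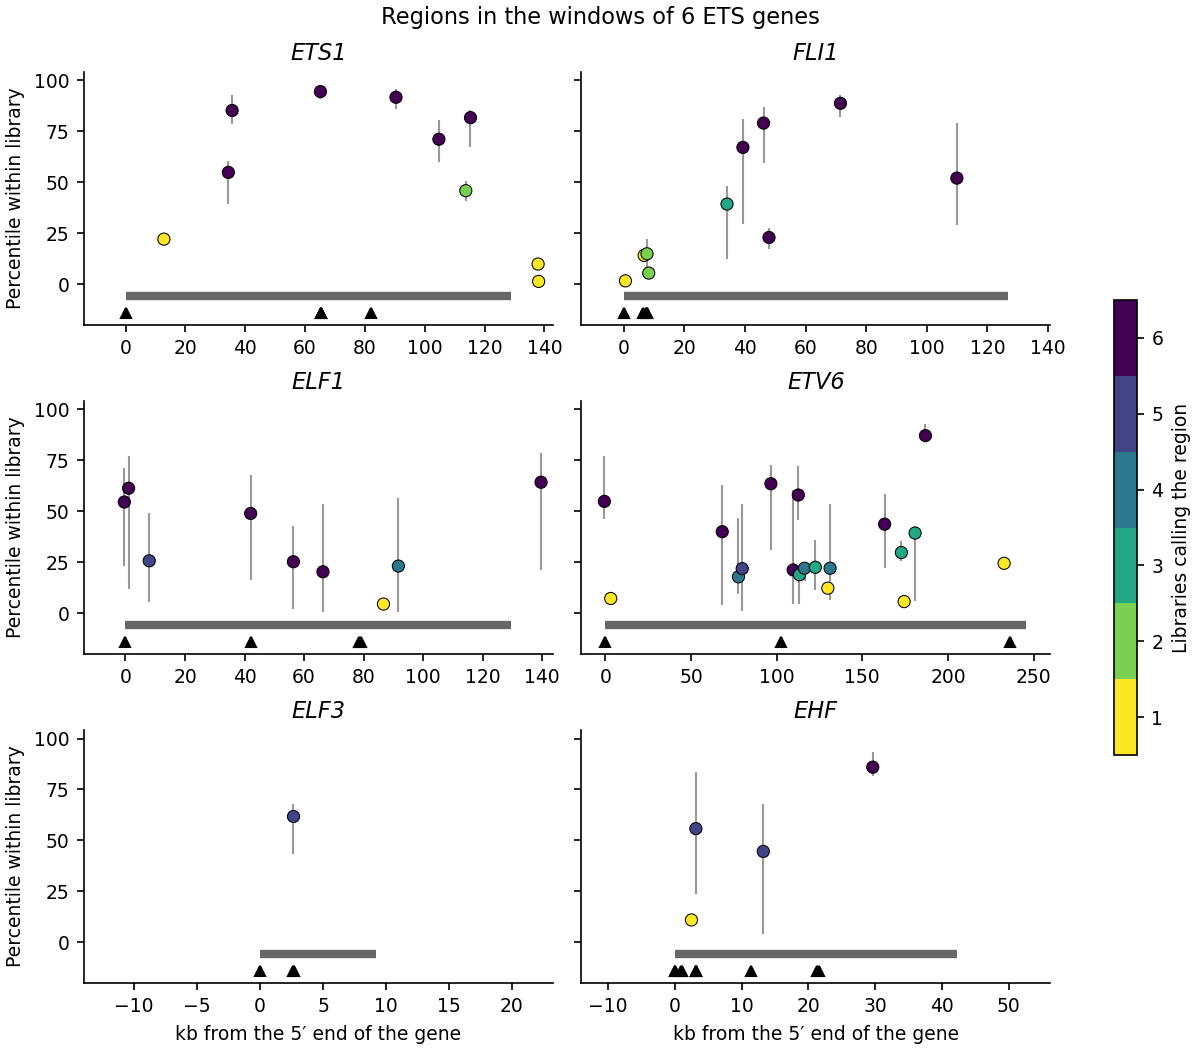
Regions in the windows of ETS1, FLI1, ELF1, ETV6, ELF3 and EHF, by distance of the strongest summit from the 5′ end of the gene (horizontal axis, kb) and by percentile within library (vertical axis, point at the median and grey line from the lowest to the highest library calling it). Colour gives the number of libraries, the grey bar the gene and triangles the annotated coding starts. The strongest regions of FLI1, ETV6 and EHF lie inside the gene, away from the starts.

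ETS1 held 5 of the 19. The element whose sequence is given, chr11:128366637-128367417, lies in an intron 7872 bp from the nearest start and had a −log10 q of 22.95, 24.4, 26.9, 36.2, 36.6 and 33.5. It was higher in the 3 libraries new buffer purified 2 and new buffer unpurified 1 and 2 than in the other 3, so the libraries did not divide by protocol. In new buffer purified 2 and both unpurified libraries it was close to or above the promoter in rank, with percentiles of 95.9, 94.5 and 93.8. Next were chr11:128421513-128422273 with a −log10 q of 23.4, 28.5, 22.5, 17.3, 29.1 and 19.4 and chr11:128341937-128342554 with 22.5, 20.8, 21.4, 16.2, 20.6 and 13.7. Together with the promoter, these put 4 ETS1 regions at or above percentile 67.4 in every library.

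FLI1 showed the opposite balance, with weak promoter calls and strong distal ones. Its region chr11:128627186-128628371, 63199 bp from the nearest start, touches an internal exon and had a −log10 q of 30.8, 22.0, 21.2, 25.1, 28.8 and 25.2. The percentiles were 92.7, 87.1, 82.3, 89.5, 90.1 and 87.97, all above the highest promoter value of 22.1. Region chr11:128602194-128602883 had 15.9, 22.1, 20.1, 10.97, 18.6 and 22.3 and chr11:128595173-128596165 had 12.6, 17.96, 15.4, 6.36, 18.6 and 11.5, with a low value for both in new buffer purified 2. In every library the strongest FLI1 element was therefore distal, and in old buffer purified 2 distal elements were the only ones listed.

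ETV6 had 18 distal regions, the most of any member, of which 6 were called in all 6 libraries and 4 in 1 library. The strongest, chr12:11989135-11989921, lies in an intron 48950 bp from a start and had a −log10 q of 30.4, 21.8, 33.2, 20.99, 25.8 and 22.4. It ranked above the ETV6 promoter in all 6 libraries, at percentiles of 92.5, 86.9, 93.1, 84.8, 87.4 and 84.8. Regions chr12:11898847-11899548 and chr12:11915055-11915547 followed, with 7.0, 8.93, 16.2, 11.7, 13.7 and 12.9 and with 8.99, 14.3, 11.9, 10.6, 11.6 and 9.68.

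ELF1 had 6 distal regions, 3 of them in all 6 libraries. Ordered by the mean −log10 q over the libraries that called them, the strongest, chr13:41495433-41496172, overlaps only the edge of the downstream flank. Its strongest summit, 41495978, lies outside the window, which begins at 41496060. The region lies at the start of the pseudogene SUGT1P3 and cannot be assigned to ELF1 alone. It had a −log10 q of 8.93, 5.64, 15.7, 10.9, 19.3 and 14.5. The next, chr13:41627404-41627867, was called in 5 libraries and chr13:41543642-41544077 in 4, with means of 6.61 and 6.54. Close to these were the other 2 regions called in all 6 libraries, chr13:41568970-41569405 with a mean of 6.11 and chr13:41579007-41579656 with 6.03. ELK3 had 2, chr12:96608953-96609363 in 5 libraries and chr12:96617381-96617908 in 4, and ETS2 had none. The latter ELK3 region also overlaps another annotated gene without a symbol and lies within 1 kb of a start of it.

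The strongest epithelial element was in EHF and not in ELF3, whose window had no distal region. The EHF intron region whose sequence is given, chr11:34671924-34672549, 7750 bp from the nearest start, was called in every library with a −log10 q of 31.7, 26.04, 20.6, 21.8, 24.3 and 21.5 and a summit of 46, 36, 32, 32, 36 and 35 reads. Its percentiles of 93.2, 91.1, 81.5, 85.99, 85.9 and 83.5 lay within or next to those of the strongest distal regions of FLI1 and ETV6. Among the 5 libraries that called both, it ranked above the EHF promoter in all but new buffer purified 1. There the promoter had 83.3 and the intron 81.5. New buffer unpurified 1 had no EHF promoter peak to compare. The other EHF distal region, chr11:34655642-34656267, was called in 5 libraries and ranged from percentile 4.06 to 67.7. The windows of the epithelial markers CDH1 and GRHL2 also held peaks in every library, 3 to 5 and 1 to 3, without a promoter call.

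Per length of window, ELF1 was the most densely covered member, with 5.35 ± 0.423 peaks per 100 kb (SD, n = 6 libraries). It was followed by ETV6 with 4.96 ± 1.08, ETS1 with 4.59 ± 0.506, EHF with 4.56 ± 1.21 and FLI1 with 4.43 ± 0.715, which overlapped with each other. ELF3 with 2.85 ± 1.40, ELK3 with 2.62 ± 0.574 and ETS2 with 2.51, from 1 peak in each library, were lower, and SPI1 and ERG were at 0. The median of all protein-coding genes was 1.93, with quartiles at 0.455 and 3.77.

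**Figure D3:**
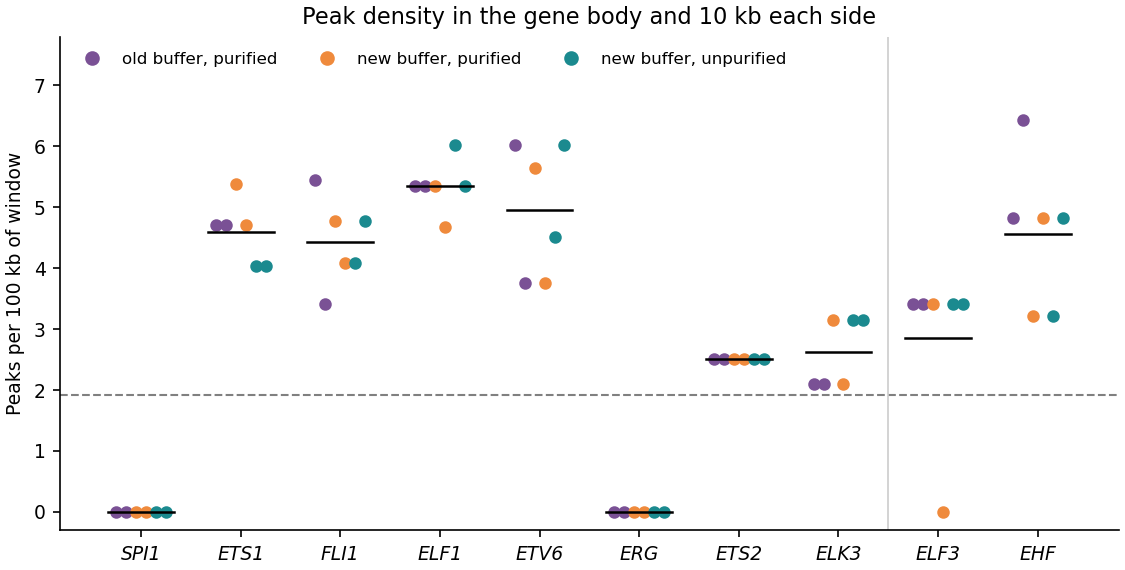
Peaks per 100 kb of gene body and 10 kb on either side (vertical axis) for the 10 genes, with 1 point per library coloured by protocol, a black bar at the mean of the 6, a dashed line at the median of all protein-coding genes (1.93) and the epithelial genes right of the vertical line. All genes but SPI1 and ERG have a mean above the dashed line, and ELF3 is at 0 in 1 library.

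Summed over their windows the 8 haematopoietic and broad members (1191 kb) held 42, 33, 42, 33, 37 and 41 peaks and the 2 epithelial members (91.4 kb) 4, 5, 3, 3, 3 and 4. This is 3.19 ± 0.36 peaks per 100 kb for the former and 4.01 ± 0.893 for the latter (SD, n = 6). The epithelial density was the higher in 5 of the 6 libraries, the exception being new buffer purified 1, and the epithelial value rests on no more than 5 peaks a library and mostly on EHF. No test was made, since 8 and 2 genes of 1 cell line are not replicates. With gene bodies alone the epithelial density was 7.13 and the haematopoietic 3.49, and without peaks within 1 kb of a start of another gene they were 3.10 and 2.84. The empty windows of SPI1 and ERG are counted in the haematopoietic value.

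The study compared the protocols to learn whether a buffer without SDS, and PCR without purification, give the same accessibility. The windows of all 10 members held 46 and 38 peaks in the old buffer purified libraries, 45 and 36 in new buffer purified and 40 and 45 in new buffer unpurified. These counts overlapped between all protocols. When the same number of strongest peaks was taken from each list, both old-buffer libraries lay below all others, by a mean of 5 peaks against either new-buffer group (exact permutation p = 0.333, the smallest possible). The difference of new minus old buffer, both purified, was −1.5 peaks (exact two-sided permutation p = 0.667), that of unpurified minus old 0.5 (p = 1 by the exact permutation test) and that of unpurified minus purified new buffer 2 (exact permutation p = 1). The spread within a protocol was 3.54 to 6.36 peaks (SD, n = 2), larger than each of these differences, and 2 against 2 libraries cannot give a p below 0.333.

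For the strength of promoters, the median percentile over the 5 members with a promoter peak in all 6 libraries was 58.2 and 56.0 in old buffer purified, 74.6 and 63.2 in new buffer purified and 58.3 and 65.9 in new buffer unpurified. Both values of either new-buffer group lay above both of the old buffer, narrowly so for the unpurified group. The difference was 11.8 percentiles for new minus old buffer purified (exact permutation p = 0.333, the smallest possible), 4.98 for unpurified minus old (exact permutation p = 0.333) and −6.85 for unpurified minus purified new buffer (exact permutation p = 0.667). After Benjamini-Hochberg adjustment over the 6 protocol tests every exact permutation p was 1. The order did not hold gene by gene, since ETS1, ETV6 and ELK3 had their highest percentile in an old-buffer library. When peaks were ranked by fold enrichment, neither new-buffer group stood clear of the old buffer, with differences of 10.7 (purified) and 4.46 (unpurified) percentiles. The separation was also lost for both groups with a promoter of 2 kb, where EHF joined the median, and for the unpurified group with a −log10 q of at least 5.

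Of the 57 member regions, 4 were called in both libraries of a protocol and in neither library of another, which compares with 9.29% of all regions of the series. All 4 lie in ETV6 introns and were called in 3 libraries each. At chr12:11924890-11925338 and chr12:11983161-11983724 these were old buffer purified 1 and both unpurified libraries, so that new buffer purified lacked them, and at chr12:11915863-11916261 new buffer purified 1 and both unpurified libraries. At chr12:11975038-11975681 they were both new buffer purified libraries and new buffer unpurified 2. Their highest percentiles were 22.0 to 42.6, all below the strongest ETV6 element.

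The remaining 18 human ETS genes place the members in their family. A promoter peak in all 6 libraries was listed for 11 of them, namely ELF2, ELF4, ELK1, ELK4, ETV1, ETV2, ETV3, ETV4, ETV5, ERF and GABPA, which compares with 45.6% of all protein-coding genes. The count was 8 to 10 under 5 of the alternatives. ELF4 lost its complete call in all 5 of these, ETV4 and ERF when −log10 q had to reach 5 and when equal numbers of peaks were taken, and ETV2 with promoters of 500 bp and with basic transcripts, where it had no call. The highest were GABPA, the DNA-binding subunit of GABP, with a median percentile of 95.6, and ETV5 with 95.2, which is the range of ETS1. SPIC was called in 3 libraries, SPIB, the B-cell relative of SPI1, in 2 and the epithelial ELF5 in 1, none above percentile 27.4. ETV3L, ETV7, FEV and the epithelial SPDEF had no promoter peak. The 3 SPI-type genes, SPI1, SPIB and SPIC, thus had a promoter peak in at most 3 libraries each. Of all 19834 protein-coding genes 7816 had one in no library, so missing calls are not particular to these genes. The epithelial genes ELF5 and SPDEF had 1 call in total, compared with 5 libraries for either ELF3 or EHF.

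**Figure D4:**
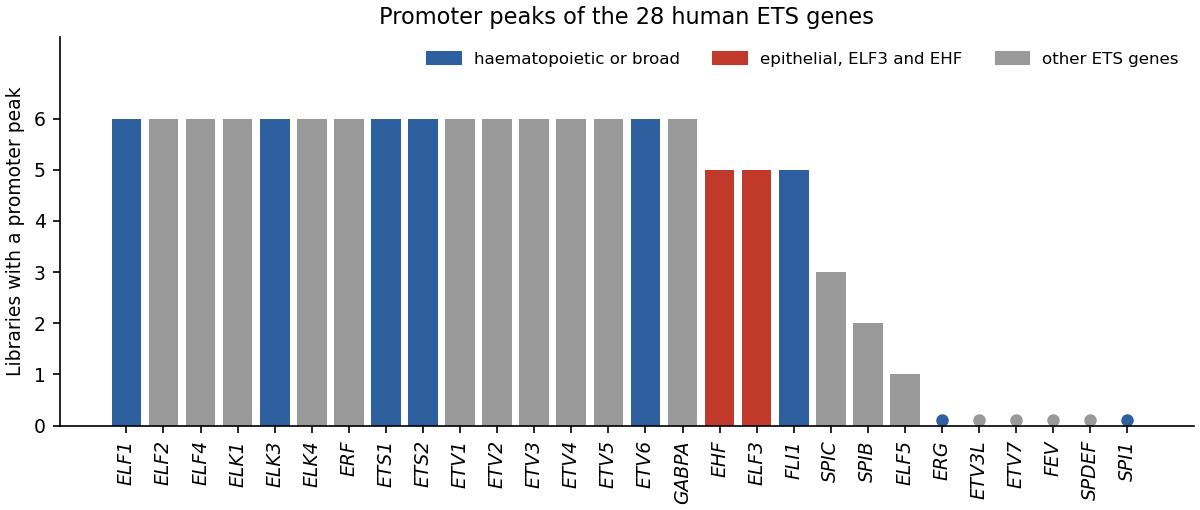
Number of libraries (vertical axis, out of 6) with a peak within 1 kb of a coding start for each of the 28 human ETS genes, with haematopoietic and broad members in blue, ELF3 and EHF in red and the other 18 in grey, and a dot where the number is 0. The 5 blue and 11 grey genes at the left reach 6, while SPI1 and ERG stand among the 6 genes at 0.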

How the data were processed

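Bulk ATAC-seq peak lists of 6 GM12878 libraries, 2 for each of 3 reverse-crosslinking protocols, were analysed. According to the study's methods, the authors mapped trimmed reads to hg19 with Bowtie2 2.1.0, kept properly paired reads with a mapping quality above 30, discarded mitochondrial reads and, with Picard 1.79, duplicates, and ran MACS2 (version not given in the sources used here) for narrow peaks at a q-value of 0.01. The deposited files give for each peak a score, a fold enrichment (a ratio over local background), −log10 p-values and −log10 q-values and the summit position. The methods also describe pooling the reads of bulk samples of the same condition before calling. They add that peaks in nuclear mitochondrial sequences and in ENCODE blacklist regions were removed. Here each library has its own list, so replicates are separate lists. DESeq, which the submitters' processing notes also name, was not used here.

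Peaks were joined to GENCODE 44 on the same build (1 bp overlap) and merged into regions, with Python 3.11.15, pandas 2.3.3 and SciPy 1.17.1. The percentile of a peak is its rank by −log10 q within its own library. Reads at the summit were computed from the fold enrichment and the p-value, which fitted to within 0.001 for all peaks. The total read depth is not given in these lists. Intersections were checked against bedtools 2.31.1 and the functions tested on simulated data. Protocols were compared over libraries by exact two-sided permutation tests with Benjamini-Hochberg adjustment over 6 tests. Percentiles showed no pairing by replicate number: deviations from the protocol mean correlated at −0.002 to 0.012 between protocols over 20064 regions called in all 6. This cannot show whether libraries with the same replicate number shared a culture or batch.

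All 10 genes are named, with every promoter region and the 3 strongest distal regions of each, and for ELF3, EHF and ERG every region. The members, gene lists and rules were chosen with earlier results of these data known. For 1 gene of the B-cell marker list the result is not reported here. Alternatives tried are a −log10 q of at least 5, the same number of strongest peaks (30136), summit placement, other promoter, transcript and window definitions, other merging, ranking by fold, the replicate block, and each library left out.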

Additional observations from a re-analysis of the deposited data

How the results depend on the processing

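Under 96 alternative values and 78 with 1 library left out, no protocol comparison passed a threshold, which 2 libraries against 2 cannot do. Raising the minimum −log10 q to 5 lowered the haematopoietic density to 2.73 peaks per 100 kb, as did the same number of strongest peaks, and turned new minus old buffer purified to 2 and 5 peaks respectively. Unpurified minus old was 3 and 5 there. With equal numbers, unpurified minus purified new buffer was 0. A promoter of 2 kb gave 1 epithelial gene with a complete promoter call (EHF). With EHF in the median, the promoter percentile difference was −0.766 for unpurified minus old. Basic transcripts alone, where ELK3 left the median, gave 1.69 for unpurified minus purified new buffer. The epithelial density was 7.13 over gene bodies alone and 3.10 (haematopoietic 2.84) without peaks near starts of other genes, which also put new minus old buffer purified at 0, as a flank of 25 kb did for unpurified minus old. Without ETS2 and ELK3, 3 of the haematopoietic members had complete promoter calls. The cause of these changes was not tested, beyond the fewer peaks, wider windows or fewer genes that each alternative uses by construction.

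With 1 library left out, complete promoter calls were 5 to 6 for haematopoietic and 0 to 1 for epithelial members and 11 for the other ETS genes, distal calls 19 to 20 and 1 to 2, and densities 3.12 to 3.27 and 3.72 to 4.16. Window peaks ranged from −6 to 3 (new minus old purified), −3.5 to 4.5 (unpurified minus old) and −2.5 to 6.5 (unpurified minus purified), so their direction depended on single libraries. The sign turned to 2.5 without old buffer purified 1 and to 3 without new buffer purified 2 in the first, to −3.5 without old buffer purified 2 and −2 without new buffer unpurified 2 in the second, and to −2.5 without new buffer purified 2 and −0.5 without new buffer unpurified 2 in the third. Promoter percentile differences kept their sign, at 6.14 to 17.2, 1.17 to 14.4 and −10.7 to −1.16. Their median covers the members with complete calls in the libraries kept, so its genes changed. FLI1 joined it without old buffer purified 2, ELF3 without new buffer purified 2 and EHF without new buffer unpurified 1. The values 17.2 and 14.4 both came without old buffer purified 2, with the weak FLI1 peaks in the median. Taking the replicate number as a block changes only the permutations. The window differences (−1.5, 0.5 and 2), the percentile differences (11.8, 4.98 and −6.85) and the calls are the same by construction. The exact permutation p was then 0.5 or 1, the smallest possible being 0.5.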
